A study of Mus musculus with 9 samples.

Results

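The 10 genes described here encode inflammatory chemokines (Ccl3, Ccl4, Ccl5), inflammatory cytokines (Il1a, Il1b, Tnf) and proteins used as markers of myeloid cells (Fcer1g, Aif1, Csf1r, Tyrobp). They were measured in co-cultures of cortical precursors with cortical neurons, in precursors alone and in neurons alone. They were selected on their measured levels, since Ccl3, Il1a and Il1b were far higher in precursors than in neurons, so that contrast is given below as a description of the members and not as a test. They are 10 of the 22180 genes with a named probe set, and each had 1 probe set or was read from the one with the highest mean. Of the 10 genes, 9 rose above the median of the array in at least 3 arrays and were among the 13012 genes tested, and Csf1r did not.

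All cells were wild type and came from the embryonic cortex of CD1 mice, and no agent was added in any group. In the 3 co-cultures, precursors of embryonic day 13 spent 1 day on neurons of embryonic day 16 that had already been kept for 4 days. The 3 precursor cultures, from embryonic day 13, were kept for 1 day. The 3 neuron cultures, from embryonic day 16, were kept for 5 days in total. The labels name each array a biological replicate, and do not say which embryos, litters or days a replicate number stands for. The separate cultures therefore differ in cell type, age of the embryo and time in culture at once, and these cannot be told apart.

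Chemokines are small secreted proteins that draw leukocytes toward a source. Interleukin 1 and tumour necrosis factor are released early in inflammation, and their receptors activate the transcription factor NF-kB, which raises the transcription of chemokine and cytokine genes, including their own. In the brain the best known source of these proteins is the microglia, the resident macrophages, which enter the embryonic brain from the yolk sac and depend on CSF1R. FCER1G and TYROBP are adapter proteins that carry an immunoreceptor tyrosine-based activation motif (ITAM) and signal for receptors of myeloid cells.

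Levels are log2 values of RNA on Affymetrix mouse gene arrays, so a difference of 1 is a change of 2-fold. Arrays of the same group correlated at 0.988 or above, and the array medians lay between 6.75 and 6.79. The labels fitted the markers: all 12 listed genes of cortical precursors passed the test as higher in precursors than in neurons, among them Mki67 of dividing cells by 2.96 and Pax6 by 2.03 on the log2 scale. Of 13 listed neuron genes 10 were lower in precursors, among them Grin2b by -2.19, and 2 were higher. The neuron genes were still high in precursor cultures, with Map2 at 11.74 ± 0.040, against 12.05 ± 0.015 in neurons (SD, n = 3 each). An array gives a level to every probe set, so the levels of 1394 olfactory and vomeronasal receptor genes were taken as a rough guide to the dim end. Their median was 4.79 and their 95th percentile 6.94.

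The start regions of the genes that led to the choice, and of Tnf, are shown because these genes are textbook targets of shared inflammatory factors. Each window runs from 250 bases before to 50 bases after the annotated start, 300 bases in all, from RefSeq on GRCm38.p6 and read along the gene on the minus strand. Capitals mark matches to the AP-1 site TGANTCA, the core GAGGAAG bound by the myeloid factor PU.1, or the TATA box TATAAA, each searched on both strands.
Ccl3, chr11:83649329-83649628: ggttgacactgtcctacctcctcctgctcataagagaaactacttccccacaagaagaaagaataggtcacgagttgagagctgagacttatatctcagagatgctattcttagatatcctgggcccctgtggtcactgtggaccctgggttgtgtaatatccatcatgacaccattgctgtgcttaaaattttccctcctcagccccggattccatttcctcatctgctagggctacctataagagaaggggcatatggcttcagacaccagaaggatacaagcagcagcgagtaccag
Il1a, chr2:129309923-129310222: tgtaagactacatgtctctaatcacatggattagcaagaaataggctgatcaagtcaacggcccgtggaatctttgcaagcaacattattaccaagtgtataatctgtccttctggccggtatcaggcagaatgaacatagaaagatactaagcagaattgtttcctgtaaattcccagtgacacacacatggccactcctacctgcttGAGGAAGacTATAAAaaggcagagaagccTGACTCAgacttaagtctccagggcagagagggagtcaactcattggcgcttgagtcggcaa
Il1b, chr2:129371090-129371389: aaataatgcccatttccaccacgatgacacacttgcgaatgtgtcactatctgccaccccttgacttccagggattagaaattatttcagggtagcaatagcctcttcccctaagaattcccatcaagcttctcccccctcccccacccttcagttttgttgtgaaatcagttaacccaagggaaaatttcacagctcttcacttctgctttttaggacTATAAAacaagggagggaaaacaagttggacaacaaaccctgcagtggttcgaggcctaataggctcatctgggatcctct
Tnf, chr17:35201958-35202257: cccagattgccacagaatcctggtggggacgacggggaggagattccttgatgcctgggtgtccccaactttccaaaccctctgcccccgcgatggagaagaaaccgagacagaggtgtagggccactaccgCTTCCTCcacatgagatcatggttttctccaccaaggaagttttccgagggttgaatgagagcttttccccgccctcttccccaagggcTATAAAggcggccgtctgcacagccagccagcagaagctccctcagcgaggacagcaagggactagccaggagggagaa
The Il1a window held all 3 motifs, with the PU.1 core from base -41 to -35 and the TATA box from -32 to -27. The AP-1 site ran from -12 to -6, where the pattern TGANTCA matches on both strands. The Il1b window held only the TATA box, from -31 to -26. The Tnf window held the PU.1 core on the opposite strand, from -118 to -112, and the TATA box from -29 to -24. The Ccl3 window matched none of them, and neither did the windows of Fcer1g and Aif1, which are not printed. None of these 6 windows held the NF-kB consensus. Of all 32851 windows of this length, 7.81% held the AP-1 site, 13.6% the PU.1 core, 13.6% the TATA box and 5.80% the NF-kB consensus. A match is a run of letters and was not tested as a binding site.

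Of the chemokines, Ccl3 and Ccl5 were high wherever precursors were present, and for Ccl4 the arrays of all cultures overlapped. Ccl3, also called MIP-1 alpha, had levels of 10.31, 10.46 and 10.51 in co-cultures, 10.58, 10.57 and 10.74 in precursors and 6.76, 6.64 and 6.19 in neurons. Every co-culture array lay just below every precursor array, and the neuron arrays lay far below both and under 6.94. Ccl3 was 4.10 ± 0.13 higher in precursors than in neurons (log2 difference ± SE), a 17.1-fold difference that is among those that chose the list. It was 14.9-fold higher in co-cultures than in neurons, with a 95% interval from 12.2- to 18.2-fold. The neuron arrays of Ccl3, Il1a and Il1b led to the choice of the list, so their differences of co-cultures from neurons are described with no test. The p-values against neurons for the other members use the same neuron arrays and are not independent of the choice either. The difference of co-cultures from precursors was -0.21, with an interval from -0.50 to 0.086 (limma, adjusted p = 0.505).

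Ccl5, known as RANTES, is a chemokine for T cells and monocytes. Its levels were 9.21, 9.21 and 9.32 in co-cultures, 9.49, 9.41 and 9.65 in precursors and 7.49, 6.96 and 7.71 in neurons. No groups overlapped, and the neuron arrays were spread more widely than the others, with an SD of 0.38 against 0.063 in co-cultures and 0.12 in precursors. Precursors exceeded neurons 4.38-fold, and co-cultures exceeded neurons 3.62-fold, with an interval from 2.83- to 4.63-fold (limma, adjusted p = 6.03e-06). The difference of co-cultures from precursors was -0.27, with an interval from -0.63 to 0.081 (limma, adjusted p = 0.451).

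Ccl4, or MIP-1 beta, is the nearest relative of Ccl3, and the RefSeq models of the pair overlap on chromosome 11 with 0 protein-coding genes between them. Its levels were 7.41, 7.39 and 7.43 in co-cultures, 7.48, 7.41 and 7.53 in precursors and 7.25, 7.15 and 7.62 in neurons. All 3 groups overlapped, and the highest array of all was a neuron array. Ccl4 differed by 0.067 between co-cultures and neurons, with an interval from -0.16 to 0.30 (limma, adjusted p = 0.595), and by -0.066 between co-cultures and precursors, with an interval from -0.30 to 0.16 (limma, adjusted p = 0.851). The neuron array at 7.62 decided the comparison with neurons: without it Ccl4 was 0.21 higher in co-cultures (limma, adjusted p = 0.0111), and without the array at 7.15 the difference was -0.027 (limma, adjusted p = 0.817). Between precursors and neurons, Ccl4 differed by 0.13, where its neighbour Ccl3 differed by 4.10. A probe set of 1 gene can bind RNA of a close relative, and probe sequences were not analysed here.

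Both interleukin 1 genes were high in co-cultures and precursors and low in neurons. Il1a encodes interleukin 1 alpha, which is active in its uncut form and is released by damaged cells. Its levels were 7.85, 7.82 and 7.99 in co-cultures, 8.03, 7.82 and 8.15 in precursors and 5.19, 5.49 and 5.29 in neurons. Co-culture and precursor arrays overlapped, and the neuron arrays lay more than a log2 unit under the guide of 6.94. Precursors exceeded neurons 6.40-fold. Co-cultures exceeded neurons 5.92-fold, with an interval from 5.07- to 6.92-fold, and differed from precursors by -0.11, with an interval from -0.34 to 0.11 (limma, adjusted p = 0.690).

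Il1b encodes interleukin 1 beta, which is secreted after the inflammasome has cut it, and lies next to Il1a on chromosome 2. Its levels were 7.72, 7.69 and 7.34 in co-cultures, 7.75, 7.53 and 7.79 in precursors and 5.90, 5.67 and 5.24 in neurons. Co-cultures and precursors overlapped, with co-culture replicate 3 below the rest. Precursors exceeded neurons 4.25-fold and co-cultures exceeded neurons 3.95-fold, with an interval from 3.07- to 5.09-fold, both given as a description. The difference of co-cultures from precursors was -0.11, with an interval from -0.47 to 0.26 (limma, adjusted p = 0.849), and it turned to 0.016 without co-culture replicate 3.

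Tnf, the gene of tumour necrosis factor, differed less. Its levels were 7.63, 7.71 and 7.69 in co-cultures, 7.63, 7.72 and 7.97 in precursors and 7.16, 6.71 and 7.06 in neurons. Co-cultures and precursors overlapped, the neuron arrays lay below both, and 2 of these were still above 6.94. Precursors exceeded neurons 1.74-fold. Co-cultures exceeded neurons 1.63-fold, with an interval from 1.36- to 1.95-fold (limma, adjusted p = 5.27e-04). Their difference from precursors was -0.093, with an interval from -0.36 to 0.17 (limma, adjusted p = 0.800), and it turned to 0.0047 without precursor replicate 3.

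**Figure D1:**
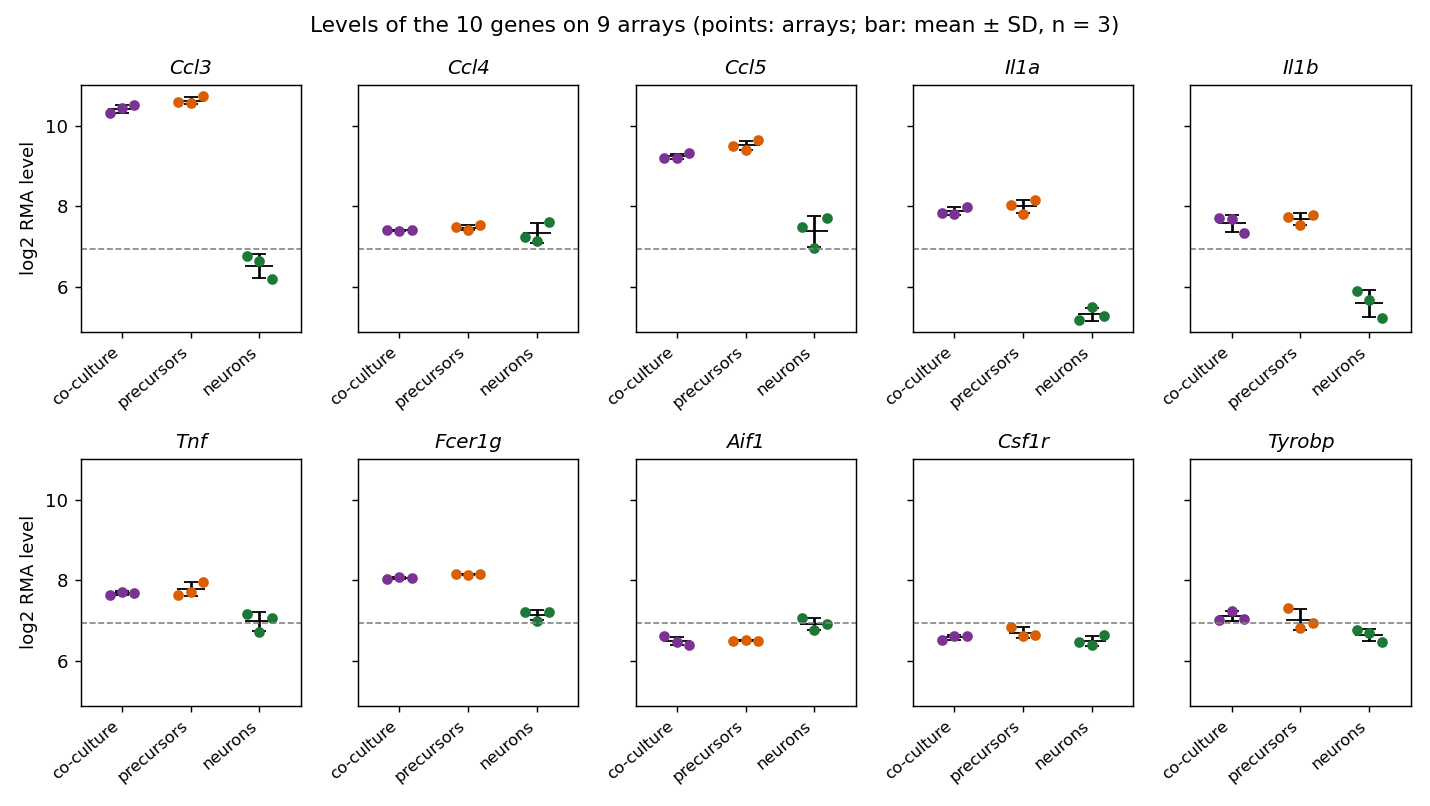
Log2 RNA level of each of the 10 genes on every array, with co-cultures, precursors and neurons from left to right (points, arrays; bars, mean ± SD, n = 3 each; dashed line, 6.94, the 95th percentile of the receptor genes). Ccl3, Il1a and Il1b cross the line between neurons and the other groups, Ccl4 does not separate the groups, and Csf1r stays under the line on all 9 arrays.

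The ITAM adapters were both higher in co-cultures than in neurons, with a smaller difference than Ccl3. Fcer1g, the gamma chain shared by Fc receptors, had levels of 8.04, 8.08 and 8.06 in co-cultures, 8.16, 8.12 and 8.15 in precursors and 7.20, 6.99 and 7.22 in neurons. The groups were tight and none overlapped, with co-cultures just under precursors. Precursors exceeded neurons 2.01-fold. Co-cultures exceeded neurons 1.90-fold, with an interval from 1.72- to 2.09-fold (limma, adjusted p = 1.22e-06), and differed from precursors by -0.085, with an interval from -0.22 to 0.055 (limma, adjusted p = 0.591).

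Tyrobp encodes DAP12, the adapter of the microglial receptor TREM2. Its levels were 7.01, 7.24 and 7.05 in co-cultures, 7.31, 6.81 and 6.93 in precursors and 6.76, 6.68 and 6.47 in neurons. Precursor replicate 1 stood above the other precursor arrays, which reached down almost to the highest neuron array, and only it passed 6.94 among the precursors. The mean of precursors was 0.38 ± 0.13 higher than that of neurons. Co-cultures exceeded neurons 1.38-fold, with an interval from 1.13- to 1.68-fold (limma, adjusted p = 0.0103), and the adjusted p was at most 0.0422 in the other settings tried that tested it. Tyrobp passed the filter only through co-culture and precursor arrays, where it is high, so this call is partly set by the filter. In the fit of all arrays without the filter its adjusted p was 0.0178 (limma). The call ended in 2 of 9 fits that left out 1 array and used no filter, with an adjusted p up to 0.0704 (limma). The difference of co-cultures from precursors was 0.084, with an interval from -0.20 to 0.37 (limma, adjusted p = 0.846), and -0.020 without precursor replicate 2.

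The general myeloid markers did not follow. Aif1 encodes IBA1, an actin-binding protein stained to show microglia. Its levels were 6.61, 6.47 and 6.39 in co-cultures, 6.50, 6.52 and 6.49 in precursors and 7.05, 6.77 and 6.92 in neurons. The neuron arrays were the highest, and only 1 of them passed 6.94. Aif1 fell by 0.42 on the log2 scale in co-cultures relative to neurons, with an interval from -0.59 to -0.25 (limma, adjusted p = 9.63e-04), and differed from precursors by -0.012, with an interval from -0.18 to 0.16 (limma, adjusted p = 0.968). It entered the tests only through the 3 neuron arrays, so a fit that leaves out any of them under the same filter does not test it. In the 9 fits that left out 1 array with no filter, the adjusted p for co-cultures against neurons was at most 0.0101 (limma). Tnf and Aif1 lie on the same chromosome with 2 protein-coding genes between them and moved in opposite directions.

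Csf1r encodes the receptor for CSF1 and interleukin 34, on which microglia depend. Its levels were 6.51, 6.62 and 6.62 in co-cultures, 6.85, 6.62 and 6.63 in precursors and 6.46, 6.38 and 6.63 in neurons. All groups overlapped, and all 9 arrays were below 6.94. In a fit without the filter the difference between co-cultures and neurons was 0.089, with an interval from -0.099 to 0.28 (limma, adjusted p = 0.449), and that between co-cultures and precursors was -0.12, with an interval from -0.31 to 0.072 (limma, adjusted p = 0.681).

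Against neurons, 7 of the 9 tested members were higher in co-cultures and 1, Aif1, was lower, with a median log2 difference of 0.92. Over all tested genes 35.7% were called higher and 24.9% lower, and the median was 0.032. Without the filter, with all 10 members tested, 7 were again higher and 1 lower, where 20.3% and 16.7% of all 22180 genes were. The 7 include Ccl3, Il1a and Il1b, whose neuron arrays led to the choice of the list, so their calls are no test. Ccl3, Il1a, Il1b and Tyrobp passed the filter only through co-culture and precursor arrays, where they are high. Aif1 passed it only through the neuron arrays, where it is high. Both counts under the filter are therefore partly set by it. The neuron arrays took part in the choice of the members, so these counts are a description and not independent of it. In precursors against neurons, the contrast behind the choice, 35.2% of tested genes were called higher and 28.0% lower.

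In the fit over the 3 groups, 0 of the 9 tested members differed in co-cultures against precursors by limma, and 0 had an unadjusted p under 0.05. Over all tested genes 8.42% were called in either direction, or 1095 genes, and 2346 had an unadjusted p under 0.05. Without the filter 0 of the 10 members were called, against 3.71% of all genes. The difference was negative for 8 of the 9, with a median of -0.093 against 0.020 over all tested genes. The precursor arrays also took part in the choice, so the shared sign is a description. Same-numbered arrays of co-cultures and precursors deviated together over all genes, although the labels state no pairing. The same-numbered differences were -0.27, -0.11 and -0.23 for Ccl3, and -0.29, -0.21 and -0.33 for Ccl5. They were negative in 3 of 3 pairs for Ccl3, Ccl4, Ccl5 and Fcer1g. For Ccl3, Ccl5 and Fcer1g every co-culture array lay below every precursor array, so any pairing would give this. The share of all genes negative in 3 of 3 pairs is not given, so this is a description. With the replicate block, 0 members were called, with adjusted p of 0.534 for Ccl3, 0.246 for Ccl5 and 0.560 for Fcer1g (limma). The main fit pools the spread over the 3 groups, so the spread of the neuron arrays enters these p-values and intervals. For Ccl3, Ccl5 and Fcer1g the SD was 0.30, 0.38 and 0.13 in neurons. It was 0.10, 0.063 and 0.020 in co-cultures and 0.0945, 0.12 and 0.020 in precursors. Il1a and Tyrobp varied most in precursors. Ccl5 came nearest to the threshold in a fit of co-cultures and precursors alone (limma, adjusted p = 0.0504). The intervals still allow Ccl5 to be lower in co-cultures by 0.63 and Ccl3 by 0.50 on the log2 scale.

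**Figure D2:**
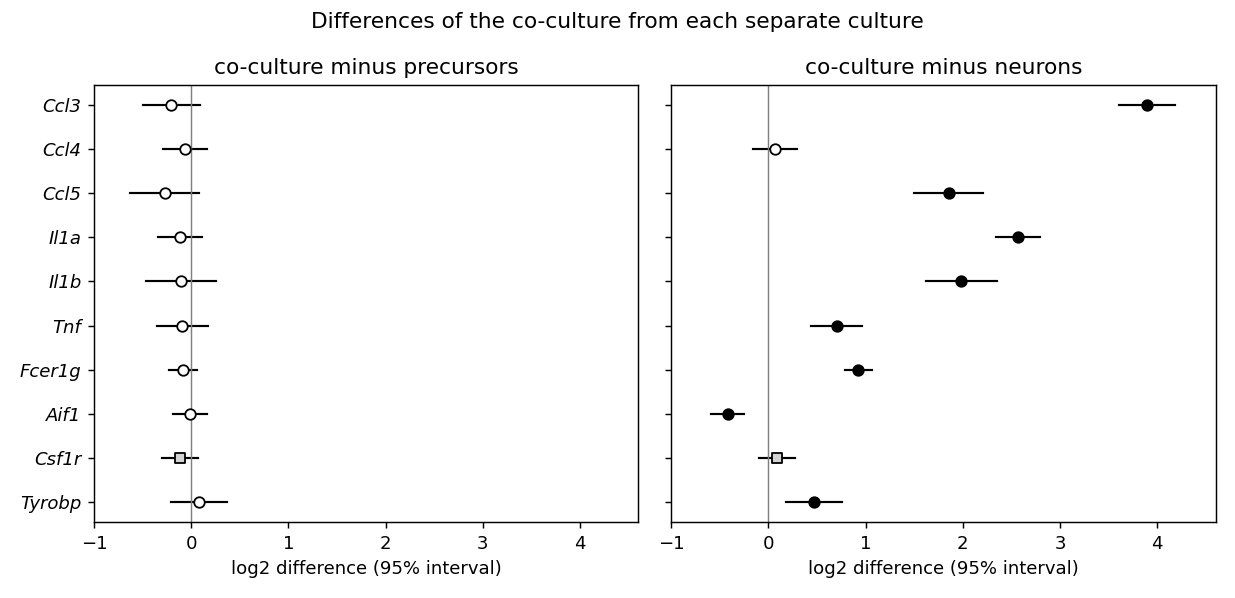
Log2 difference of co-cultures from precursors and of co-cultures from neurons for each member, with 95% intervals from limma (filled, adjusted p under 0.05; open circle, tested and not under it; grey square, Csf1r, not tested). Every interval against precursors includes 0, and against neurons the differences run from -0.42 for Aif1 to 3.89 for Ccl3. Against neurons, the filled points of Ccl3, Il1a and Il1b are a description, since these arrays led to the choice of the list. Tyrobp and Aif1 passed the filter only through the groups where they are high.

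The co-culture held neurons as well as precursors, so its level was also placed between those of the separate cultures on the linear scale, as the share of the distance from precursors toward neurons. For Ccl3 the co-culture arrays lay 21.3%, 12.2% and 8.65% of the way to neurons. For Ccl5 they lay 25.6%, 25.5% and 17.3% of the way, and for Fcer1g 14.2%, 9.2% and 10.7%. The mean was 14.1% ± 6.54 for Ccl3, 22.8% ± 4.77 for Ccl5 and 11.4% ± 2.58 for Fcer1g (SD, n = 3). For Il1a it was 9.23% ± 7.17 and for Il1b 8.81% ± 17.1, where co-culture replicate 3 lay at 28.5% and the others near precursors. With 1 array left out these means ranged from 3.12% to 15.3% for Il1a and from -1.02% to 14.8% for Il1b. For Il1a the lowest was without precursor replicate 3 and the highest without precursor replicate 2. For Il1b the lowest was without co-culture replicate 3, the highest was without precursor replicate 2, and it was 14.5% without co-culture replicate 1 and 4.49% without precursor replicate 3. The median over the 109 genes at least 4-fold higher in precursors was 8.63%, 11.2% and 13.1% in co-culture arrays 1 to 3. Ccl5 lay above that median on all 3 arrays, and Ccl3, Il1a, Il1b and Fcer1g lay above it on some arrays and below it on others. The 109 genes include Ccl3, Ccl5, Il1a and Il1b, and not Fcer1g, which was 2.01-fold higher in precursors. The spread over the 109 genes is not given, so these places do not set a member apart. In such mixed RNA, fewer cells of a type and less RNA per cell cannot be told apart.

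Within groups the members did not vary as one. After the group mean was taken from each array, 23 of the 45 pairs of members correlated positively over the 9 arrays, with a median r of 0.080. Ccl5 and Fcer1g deviated together at r = 0.938, Ccl4 and Ccl5 at 0.859, and Tnf with Ccl5 at 0.799. Ccl3 and Ccl4 deviated in opposite ways at -0.740, and Il1a and Il1b showed no shared deviation at -0.043. Ccl3, Ccl4, Ccl5, Tnf and Fcer1g were spread most in neurons, so the 3 neuron arrays weigh most in the correlations among them. For Ccl4 the SD was 0.24 in neurons, against 0.020 in co-cultures and 0.061 in precursors. The genes share the RNA of each array, and no values of other genes stand beside these. They are given as a description.

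Over the 9 arrays, group differences included, Ccl3 correlated with Il1a at 0.994, Il1b at 0.987, Fcer1g at 0.984, Ccl5 at 0.968, Tnf at 0.930 and Tyrobp at 0.796. Ccl4 stood apart at 0.311 and Aif1 was opposite at -0.916. The non-member genes with the pattern most like Ccl3 were Lrp4, Ntng1, Cth, Shmt2 and Pold1, with r from 0.998 to 0.999, and they were 1.34 to 2.46 higher in precursors than in neurons on the log2 scale. LRP4 is an agrin receptor, SHMT2 a mitochondrial enzyme of one-carbon metabolism and POLD1 the catalytic subunit of DNA polymerase delta. Those most like Fcer1g were Timeless, Dut, 2610318N02Rik, Igdcc3 and Mfng, with r from 0.997 to 0.999. These points are 3 groups of 3 arrays, so any gene that separates the groups in the same way gets a high r.

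Other genes of the same pathways moved in both directions. The 7 lists held 158 genes, of which 145 had a named probe set and 62 were tested. Of these, 22 were higher and 12 lower in precursors than in neurons, 22 were higher and 11 lower in co-cultures than in neurons, and 4 were higher and 0 lower in co-cultures than in precursors. The share called higher was 35.5% against neurons for both precursors and co-cultures, near the 35.2% and 35.7% over all tested genes, and 19.4% and 17.7% were lower, against 28.0% and 24.9%. Against precursors it was 6.45%, where 8.42% of all tested genes were called in either direction. These 3 comparisons share arrays with each other.

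Of 12 tested chemokine ligands outside the members, 2 were higher in precursors than in neurons and 5 were lower, with a median difference of -0.046. Cxcl2, a neutrophil chemokine, had 7.44 ± 0.10 in precursors, against 6.75 ± 0.18 in neurons, and was 0.69 higher (limma, adjusted p = 1.14e-04). Ccl9 was also 0.69 higher (limma, adjusted p = 2.06e-04). Cx3cl1, the neuronal ligand of the microglial receptor CX3CR1, had 7.95 ± 0.15 in precursors, against 9.36 ± 0.21 in neurons, a 2.67-fold lower level in precursors (limma, adjusted p = 1.38e-06). Ccl27a was 0.87 lower in precursors than in neurons. In co-cultures, Cx3cl1 was 0.52 higher than in precursors (limma, adjusted p = 0.0116) and Ccl27a 0.24 higher (limma, adjusted p = 0.0106). The Ccl27a call ended without co-culture replicate 1 (limma, adjusted p = 0.0539) and with the mean of probe sets (limma, adjusted p = 0.435).

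Of 22 chemokine receptors with a probe set, 14 stayed under 6.94 on all arrays and 8 were tested. Cxcr4 and Ackr3, both receptors of CXCL12, were 0.47 and 0.40 higher in precursors than in neurons, with adjusted p of 1.58e-05 and 3.98e-04 by limma. Ackr1, a scavenger that binds CCL5 among other chemokines, was 1.94 lower in precursors than in neurons, and it was 0.72 higher in co-cultures than in precursors (limma, adjusted p = 0.00384). Of 5 tested genes of the interleukin 1 family, the kinase Irak1 was 0.55 higher in precursors and Il1rapl1, a synaptic member of the receptor family, was 1.24 lower. Il1rap, the shared accessory chain, was 0.22 lower (limma, adjusted p = 0.0289), and this call ended in 6 of 16 alternatives.

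Among 10 tested ligands, receptors and mediators of the tumour necrosis factor family, 5 were higher in precursors than in neurons and 1 was lower, with a median of 0.30. Adam17, the protease that sheds tumour necrosis factor from the cell surface, was 0.83 higher (limma, adjusted p = 4.87e-05), Tnfrsf12a was 0.81 and Traf2 0.58 higher. The other 2 that were higher are the receptors of tumour necrosis factor itself, Tnfrsf1a by 0.57 and Tnfrsf1b by 0.44 (limma, adjusted p = 6.51e-05 and 9.99e-04), and they are named after their values were seen. Tnfrsf21 was 0.60 lower in precursors than in neurons. It was 0.16 higher in co-cultures than in precursors (limma, adjusted p = 0.0499), a call that ended in 14 of 18 alternatives.

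Of 8 tested genes of NF-kB signalling, 3 were higher in precursors than in neurons and 1 was lower. The subunit gene Nfkb2 was 0.48 higher and the kinase gene Ikbkb 0.22 higher, and Rel was 0.37 lower. The third higher gene was the inhibitor Nfkbia, by 0.16, a call that ended in 5 of 18 alternatives, named after its value was seen. Of 13 other tested inflammatory genes, 7 were higher and 2 lower, with a median of 0.19. Cd14, a co-receptor for bacterial lipopolysaccharide, was 0.77 higher in precursors than in neurons, Ier3 was 0.58 and Ptgs2, the inducible cyclooxygenase, 0.48 higher, and Csf1, a ligand of CSF1R, was 0.64 lower. Of 6 tested partners of the ITAM adapters, the kinase Syk was 0.32 higher and the adapter Lcp2 0.28 higher, and 0 were lower.

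**Figure D3:**
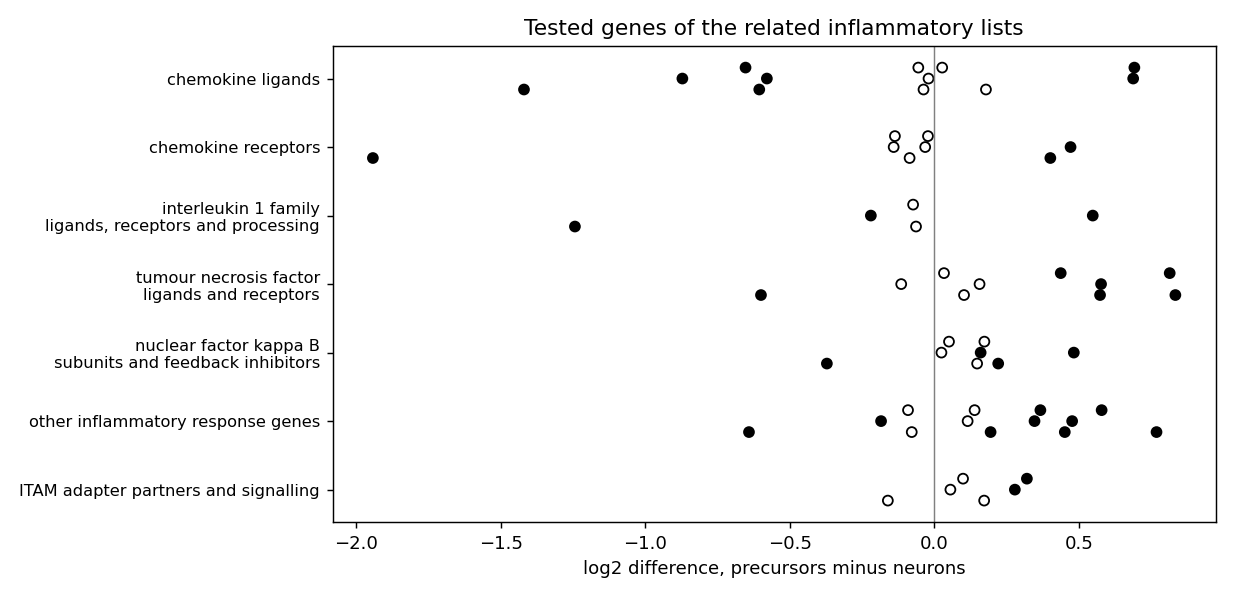
Log2 difference of precursors from neurons for the tested genes of the 7 pathway lists, members left out (filled, limma adjusted p under 0.05; open, not). Each list with calls in both directions spreads around 0, and in no list did all tested genes pass in one direction.

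Markers of myeloid cells are given beside these results because the 10 genes are best known from such cells. Of 21 microglia markers with a probe set, 13 stayed under 6.94 on all 9 arrays, among them P2ry12, Tmem119, Siglech, Gpr34, Fcrls, Itgam and Ptprc. P2ry12, a receptor of homeostatic microglia, had 6.37 ± 0.095 in co-cultures, 6.45 ± 0.016 in precursors and 6.51 ± 0.063 in neurons. Cx3cr1 had 7.82 ± 0.14 in co-cultures, 8.01 ± 0.13 in precursors and 8.03 ± 0.12 in neurons, and it was not called in any comparison. Of the 9 tested, 4 were higher in precursors than in neurons and 0 lower. They were Sall1 by 1.90, Olfml3 by 0.40, Cd68 by 0.31 and Spi1, the gene of PU.1, by 0.30, and Sall1 is also known from neural progenitors. Olfml3 stayed under 6.94 on all 9 arrays and passed the filter only through the cultures where it is high. The count of microglia markers called is therefore partly set by the filter.

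The summed linear level of the microglia markers lay between 2639 and 2737 in co-cultures, 2686 and 2846 in precursors and 2190 and 2339 in neurons. Much of that gap was Sall1: without it the sums lay between 2271 and 2361 in co-cultures, 2294 and 2398 in precursors and 2061 and 2233 in neurons. Of 18 macrophage and monocyte markers, 12 stayed under 6.94 on all arrays, and 4 of the 5 tested were higher in precursors than in neurons. Cybb, Cd14 and Adgre1 passed the filter only through the cultures where they are high, so this count is partly set by the filter. Without the filter, 5 of the 18 macrophage and monocyte markers and 5 of the 21 microglia markers were higher and 0 lower, where 20.2% of all genes were called higher and 17.7% lower. Cybb, the catalytic subunit of the phagocyte oxidase, was 1.63 higher, with 7.38 ± 0.086 in precursors, against 5.75 ± 0.21 in neurons (limma, adjusted p = 4.83e-07). Cd14, which is in this list too, was 0.77 higher, Adgre1, a surface receptor of mature macrophages, 0.52 and Lgals3 0.35. The summed level of this list lay between 1515 and 1574 in co-cultures, 1552 and 1697 in precursors and 1189 and 1413 in neurons. Much of that gap was Cybb. With Cybb left out the sums lay between 1346 and 1407 in co-cultures, 1389 and 1539 in precursors and 1140 and 1349 in neurons. Co-cultures and neurons then overlapped. In co-cultures against precursors, 0 markers of either list were called.

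Markers of other cells moved too. All 4 tested endothelial markers were higher in precursors than in neurons, where 35.2% of all tested genes were. They were Cdh5 by 1.21, Flt1 by 0.51, Pecam1 by 0.34 and Kdr by 0.30. Of the 11 markers, 6 stayed under 6.94 on all arrays and only 1 had a mean over all arrays above it. Without the filter 5 of the 11 were higher and 0 lower, where 20.2% and 17.7% of all genes were. The Kdr call ended in 3 of 17 alternatives. Of 7 tested markers of pericytes and meningeal fibroblasts only Pdgfrb was higher, by 0.36. Of 6 tested astrocyte markers 4 were higher, with Sox9 by 1.86 and Aldoc by 1.78, and 2 were lower, and radial precursors share several of these genes. Of 12 lymphocyte markers 11 stayed under 6.94 on all arrays and 0 were called. Of the 13 genes of neutrophils and mast cells 10 stayed under it, and Kit alone was called, as 0.30 lower in precursors than in neurons. In the red cell list only Tfrc was called, 0.47 lower in precursors than in neurons, and in the oligodendrocyte list only Olig2, 0.30 higher, a call that ended in 7 of 17 alternatives. The microglia, macrophage and endothelial markers that were called were thus higher in precursors than in neurons. So were all 12 listed genes of cortical precursors and 4 of the 6 tested astrocyte markers. The filter partly set the microglia and macrophage counts. With no filter 5 of 21 microglia markers and 5 of 18 macrophage and monocyte markers were higher, where 20.2% of all genes were. Of the microglia markers, 13 of 21 stayed under 6.94 on all arrays, and the member Aif1 was higher in neurons. The part of any of these cells in the differences of Ccl3, Ccl5, Il1a, Il1b, Tnf and Fcer1g was not tested.

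**Figure D4:**
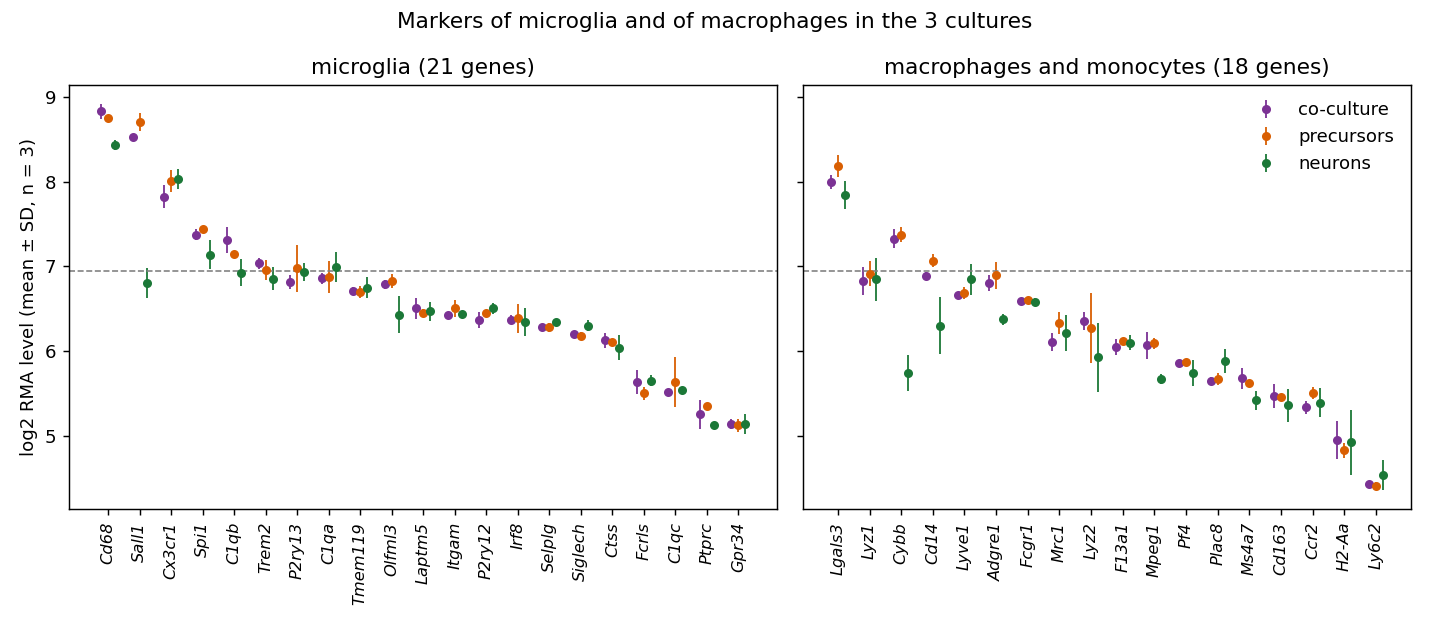
Mean log2 level ± SD (n = 3) of 21 microglia and 18 macrophage or monocyte markers in co-cultures, precursors and neurons, with a dashed line at 6.94. Most markers, P2ry12, Tmem119 and Ptprc among them, lie below the line in all cultures, and Sall1 and Cybb are well apart between precursors and neurons.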

How the data were processed

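RNA from 9 mouse cultures was measured on Affymetrix gene arrays, with cDNA made from 100 ng of total RNA per the labels' protocols. The authors deposited a log2 level for each probe set, computed with RMA in oligo per the submitters' processing notes, which name no version. RMA fits over all arrays and makes their distributions alike, which can shrink small differences and gives some equal values. Scanner files were not analysed here, arrays have no read depth, and their number limits the precision. The sources used here name no genome build for the array values, and GRCm38.p6 is the build of the RefSeq windows.

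The platform table gave 1 gene symbol for 23521 of 41345 probe sets, several for 1814 and none for 16010. The 23521 were used, and 23328 of them matched the RefSeq table by gene number. A gene was read from its probe set with the highest mean, and genes above the array median in at least 3 arrays were tested. One limma fit (version 3.58.1, R 4.3.3, lmFit and eBayes) covered the 3 groups, two-sided, with Benjamini-Hochberg adjustment over 13012 genes and a threshold of 0.05. The p-values measure the spread between 3 cultures a group, pooled over the 3 groups. The 9 fits that leave out 1 array and the other 9 alternatives were planned, and 9 fits without filter that also leave out 1 array were chosen after seeing the data. On simulated data for co-culture against precursors over 13012 genes, 96% of genes changed 1.5-fold were called and 5.42% of calls were false. The simulation changed 200 genes and drew normal values with the same spread in every group. Its share is an average over genes and does not give the power for a single member. Same-numbered co-culture and precursor arrays deviated together (correlations of 0.34, 0.30 and 0.16 across genes, all above the limit of 0.1 used here). The labels state no pairing and different-numbered arrays were not compared, so whether the numbers pair these cultures is not known. The replicate block is therefore given as an alternative. Not all correlations passed that limit for neurons with co-cultures (-0.0051, 0.27 and 0.17) or for precursors with neurons (0.0043, 0.13 and -0.15).

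The members and all lists were chosen with earlier results of these data known. Named are all members, up to 4 tested genes of each list with the largest difference of precursors from neurons, and the 5 genes most like Ccl3 and the 5 most like Fcer1g. Map2, Cx3cr1, P2ry12, the other microglia markers listed under 6.94, Vcam1, Tnfrsf1a, Tnfrsf1b and Nfkbia were named after their values were seen.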

Additional observations from a re-analysis of the deposited data

How the results depend on the processing

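With 3 arrays a group, the intervals of the members against precursors reach down to -0.63 on the log2 scale, for Ccl5. Folds of genes near or under 6.94 can be understated. In all 18 alternatives, and in 9 more with no filter and 1 array left out, 0 members were called in co-cultures against precursors. Members called higher against neurons numbered 2 under the stricter filter (75th percentile in 3 arrays), where fewer members were tested, and 6 to 8 with 1 array left out. Members called lower numbered 0 under the stricter filter and 0 to 1 with 1 array left out. With the replicate block, which treats same-numbered cultures as pairs, 0 members were called in co-cultures against precursors and 7 higher and 1 lower against neurons. It gave 1086 calls over all genes for co-cultures against precursors, of which 42 were lower, against 26 without it, and it ended the call of Tnfrsf21 there (limma, adjusted p = 0.0781) and of Vcam1 in precursors against neurons (limma, adjusted p = 0.0716). Over all genes, co-cultures against precursors gave 686 to 1163 calls with 1 array left out, fewest without co-culture replicate 2. Of the pathway genes, those higher in co-cultures than precursors numbered 2 with the mean of probe sets and 2 to 4 with 1 array left out. Under the stricter filter the pathway genes numbered 8 higher and 4 lower in co-cultures against neurons and 7 higher and 4 lower in precursors against neurons, where fewer genes were tested. With no filter 18 were lower in co-cultures than neurons. The stricter filter left 19 markers higher in co-cultures than neurons and 19 higher in precursors than neurons. The place between the separate cultures with 1 array left out ranged from 17.9% to 26.2% for Ccl5, 10.4% to 16.8% for Ccl3, 9.93% to 12.8% for Fcer1g, 3.12% to 15.3% for Il1a and -1.02% to 14.8% for Il1b. Some differences that were not called changed sign: in co-cultures against precursors Il1b ranged from -0.19 to 0.016, Tnf from -0.16 to 0.0047, Aif1 from -0.071 to 0.036 and Tyrobp from -0.020 to 0.23 with 1 array left out, and Aif1 was 0.0081 with array weights and 0.013 with cyclic loess. Ccl4 in co-cultures against neurons ranged from -0.027 to 0.21 with 1 array left out. For changes under other fits, the cause was not tested.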
